A study of Mus musculus with 6 samples.

Results

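Isolated cytosines are the positions in this mouse bisulfite data set that stand alone: on chromosomes 1 to 19, the nearest other listed cytosine lay more than 1000 bp away. They were chosen by position only, and 38669 of the 39875 such positions had at least 1 read in each of the 6 samples. The other 1206 were left out. The 38669 members made up 6.14% of the 630002 autosomal cytosines with reads in every sample, and 652716 cytosines were listed in all. The remaining 591333 autosomal cytosines with reads in every sample are called the other cytosines below. Isolation refers to the listed positions only. Every listed cytosine had at least 10 reads summed over the 2 samples of each day. Unlisted cytosines between the members may have been read less deeply or not at all.

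Genomic DNA came from bone marrow of C57BL/6J mice labelled male, cultured with supernatant of a transfected SP2/0 line that secretes Flt3L, the growth factor that drives marrow progenitors towards dendritic cells. Day 0 was uncultured marrow (replicates 2 and 3), day 4 was labelled common myeloid progenitor (replicates 1 and 2), and day 7 was labelled bone-marrow derived dendritic cell (replicates 1 and 4), with 2 samples per day. Per the labels, the day 4 and day 7 samples took every live cell of the culture, with no sort named. Bone marrow is a mixture of cell types and the cultures may be too, so each level is an average over the cells of a sample. The labels do not say whether replicates came from separate animals, and the p-values reflect no more than how far these samples scatter, and that scatter may be technical. The cell type labels were not checked against marker genes, because no gene positions of the build in use (mm9) were used here.

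In mammals, methylation sits mainly on cytosines followed by guanine. It is written by DNMT3A and DNMT3B and copied to the new strand at each cell division by DNMT1. Clusters of such cytosines, the CpG islands, are usually unmethylated, whereas scattered ones in intergenic DNA and gene bodies are usually methylated. Scattered sites with no close neighbour are also known as the ones that lose methylation most readily in cells that divide many times.

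Reduced representation bisulfite sequencing cuts DNA with MspI or TaqI and reads the fragment ends, and a methylation level is the percent of reads at a cytosine that stayed cytosine after bisulfite conversion. Depth was low at the isolated positions: the median was 10 and 8 reads per cytosine in the day 0 samples, 10 and 7 on day 4, and 9 and 3 on day 7, against 4 to 14 at the other cytosines. Only 51 members had 10 or more reads in every sample, which was 0.132% of the members, against 2.31% of the other cytosines. Between 144686 and 447096 reads per sample fell on the members. Levels of single members are therefore coarse, and the comparisons between days rest on reads pooled over chromosomes or 1 Mb windows. Reads carried no molecular identifiers, so binomial intervals cover counting error only.

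Both day 7 libraries stood apart on the sex chromosomes. The ratio of reads per cytosine on X to reads per autosomal cytosine was 1.00 and 1.04 in the day 7 samples, against 0.644 to 0.684 in the other 4, although all are labelled male. Reads on 27 cytosines of unplaced Y sequence were 40.2 and 44.1 per 1000000 autosomal reads on day 7, against 60.1 to 75.1 in the others. Mitochondrial DNA, which is taken to carry little methylation, had a level over 31 cytosines of 0.547% and 0.490% on day 0, 1.17% and 0.664% on day 4, and 2.27% and 1.76% on day 7. Both measures moved with the comparison of day 7 with the earlier days. With the mitochondrial level taken as the share of unconverted reads and removed, the isolated mean was 5.10 points higher on day 7 than on day 0, against 5.46 points without this step. The part of the sex chromosome difference in the results below was not tested. Since both day 7 samples are affected, no comparison with day 7 could be made without them.

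The isolated cytosines were mostly methylated. The median member had a level of 78.1% over the reads of all 6 samples, with quartiles of 67.1% and 85.4%. The median other cytosine stood at 58.1%, with quartiles of 1.43% and 84.5%. Only 1014 members (2.62%) were below 10%, against 241695 other cytosines (40.9%). The most filled class of 5 points was 80% to 85%, with 17.8% of the members. The difference at the low end was the main one: 275 members (0.711%) had no methylated read in any sample, against 110415 other cytosines (18.7%).

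Intermediate and high levels were more common among the members, except at the very top. Members between 50% and 80% numbered 17554 (45.4%), against 18.4% of the other cytosines. Members between 80% and 90% numbered 12692 (32.8%), against 21.1%, and 4447 (11.5%) were at 90% or more, against 12.6%. The share with no unmethylated read in any sample was 0.266% of the members and 0.276% of the other cytosines. Members had fewer reads over the 6 samples (median 50, against 67), so their single levels scatter more, and the part of this in the spread of levels was not tested.

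**Figure D1:**
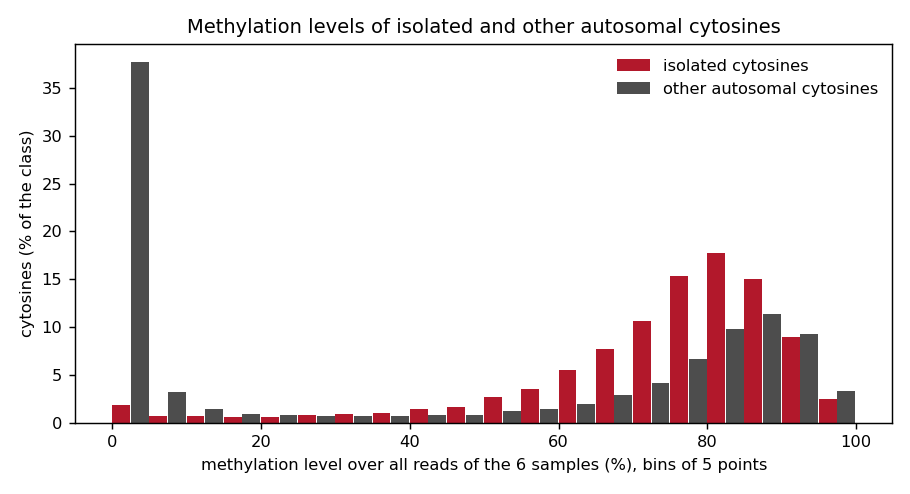
Share of cytosines (y axis, percent of each class) by methylation level over all reads of the 6 samples (x axis, percent, bins of 5 points), for the 38669 isolated and the 591333 other autosomal cytosines. The isolated cytosines form 1 broad hill with its top at 80% to 85%, whereas the others have a large extra bar next to 0.

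The level of a cytosine depended on how far away its nearest listed neighbour was. Cytosines with a neighbour within 10 bp had a mean level of 29.1% over the 6 samples, those at 10 to 30 bp 52.2%, those at 30 to 100 bp 61.5%, and those at 100 to 300 bp 67.9%. The 6381 cytosines at 300 to 1000 bp broke this order with 63.2%. Among the members, the mean was 71.0% at 1000 to 2000 bp, 72.5% at 2000 to 5000 bp, 73.4% at 5000 to 10000 bp, and between 72.8% and 73.7% in the 3 bins beyond that. Bin means within the isolated class thus differed far less than those between 0 and 300 bp.

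Unmethylated members grew rarer with distance in every bin. Members below 10% made up 4.78% at 1000 to 2000 bp, 3.05% at 2000 to 5000 bp, 2.33% at 5000 to 10000 bp, 1.65% at 10000 to 20000 bp, 0.972% at 20000 to 50000 bp, and 0.556% beyond 50000 bp. Among cytosines at 50% or more over all reads, the order of level turned round: the mean was 85.2% within 10 bp and 78.7% at 1000 to 2000 bp, and it was 76.5% beyond 50000 bp. The methylated members with the most distant neighbours were therefore the less fully methylated ones.

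The median distance from a member to its nearest listed cytosine was 5698 bp, with quartiles of 2722 and 12288 bp and a maximum of 276352 bp. A distance over 10000 bp was found for 12058 members and over 50000 bp for 720. Next to the threshold, the 724 members at 1000 to 1100 bp averaged 69.2%, and the 718 cytosines just outside the class, at 900 to 1000 bp, averaged 66.1%.

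Isolated cytosines also resembled their neighbours little. Across 6079 members whose nearest listed cytosine was 1000 to 2000 bp away, the Pearson correlation of the 2 levels was 0.209, and it was 0.0869 across 10865 members at 2000 to 5000 bp and 0.0189 across 8930 at 5000 to 10000 bp. Other cytosines and the next one listed gave 0.989 within 10 bp, 0.931 at 30 to 100 bp and 0.735 at 300 to 1000 bp. These are descriptions across sites that share the same 6 libraries, and close pairs also share reads. Spread of levels and depth both enter them, and members are shallower and narrower in range than the others.

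A trace of likeness was found at the low end. Of 998 members below 10% whose nearest listed cytosine had reads in every sample, that neighbour was also below 10% in 193 cases (19.3%). For members at 80% or more the share was 8.92%. The low members also lay closer to their neighbours, at a median of 3392 bp against 5501.5 bp, and the part of distance in this difference was not tested.

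**Figure D2:**
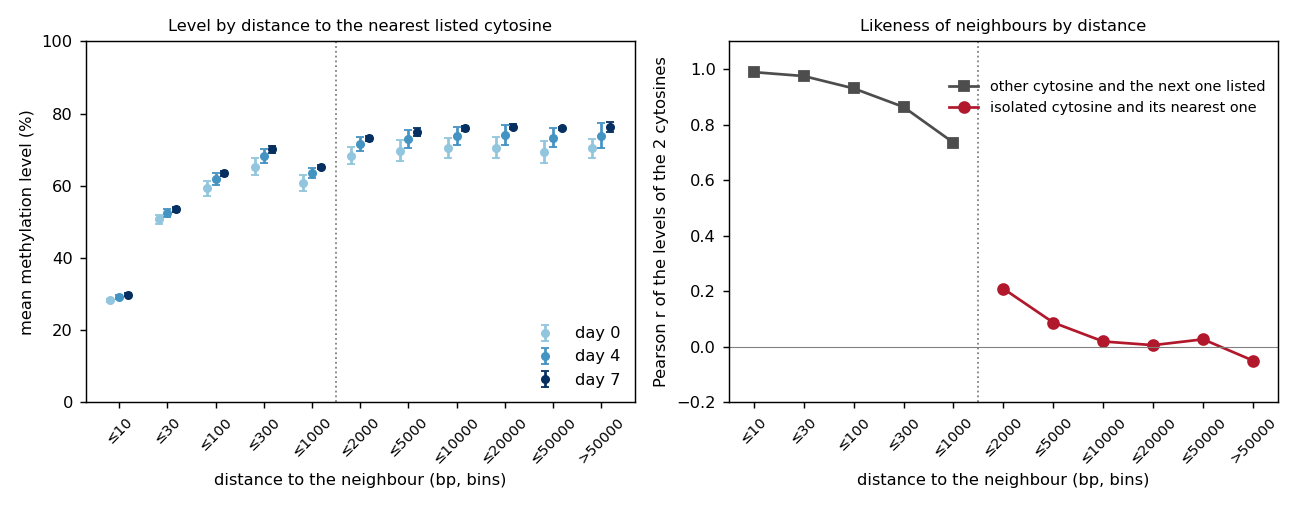
Left, mean methylation level (y axis, percent) of autosomal cytosines by distance to the nearest listed cytosine (x axis, bins in bp), with points for the mean and bars for the SD of the 2 samples of days 0, 4 and 7. Right, Pearson correlation of neighbouring levels (y axis) by distance (x axis, bins in bp). The dotted line marks 1000 bp: members lie to its right, where levels are near 73% and correlations are at most 0.209.

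Across days, the mean level of the isolated cytosines was 71.8% and 67.8% in the day 0 samples, 74.9% and 71.5% on day 4, and 75.8% and 74.7% on day 7. Both day 7 samples were above both day 0 samples, while the day 4 samples overlapped those of both other days. The mean was 75.2% ± 0.780 on day 7 and 69.8% ± 2.78 on day 0 (SD, n = 2 each), a difference of 5.46 points, with differences between single samples of 2.94 to 7.97 points. An exact two-sided permutation test gave p = 0.333, the smallest that 2 against 2 samples allow, so the difference cannot pass 0.05 in this design.

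Day 4 averaged 73.2% ± 2.45 and day 0 69.8% ± 2.78 (SD, n = 2 each), a difference of 3.43 points (exact permutation p = 0.667). Day 7 averaged 2.03 points above day 4 (exact permutation p = 0.667). The 3 comparisons share samples, each day entering 2 of them. Replicates of 1 day differed by 3.93 points on day 0, 3.46 on day 4 and 1.103 on day 7, so the first and second gaps were as large as the day 4 differences. Without day 0 replicate 3, the lowest sample, day 7 was 3.49 points above day 0. Without day 4 replicate 2, day 7 was 0.294 points above day 4.

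The mean of the other cytosines moved in the same order by fewer points. It was 46.5% ± 0.628 on day 7 and 43.8% ± 1.13 on day 0 (SD, n = 2 each), a difference of 2.68 points. The gap between isolated and other cytosines was 28.8 ± 0.152 points on day 7 and 26.0 ± 1.65 points on day 0 (SD, n = 2 each). The gap was thus 2.78 points wider on day 7, without overlap between the samples, and an exact permutation test gave p = 0.333, the smallest possible. Computed from pooled reads, in which deep positions count more, it was 0.642 points wider. The samples of the days then overlapped (exact permutation p = 0.667).

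Many other cytosines are unmethylated and move little, so the classes were also set side by side by level. At 50% or more over all reads, 34693 isolated cytosines averaged 80.5% ± 0.996 on day 7 and 74.96% ± 2.98 on day 0 (SD, n = 2 each). The 308322 other cytosines of that range averaged 83.1% ± 1.24 on day 7 and 79.4% ± 2.16 on day 0. Isolated minus other was -2.60 points on day 7 and -4.48 points on day 0, a difference of 1.88 points between the days (exact permutation p = 0.333). In this range, then, isolated cytosines were the lower class in all 6 samples, and the order of the full sets was reversed.

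**Figure D3:**
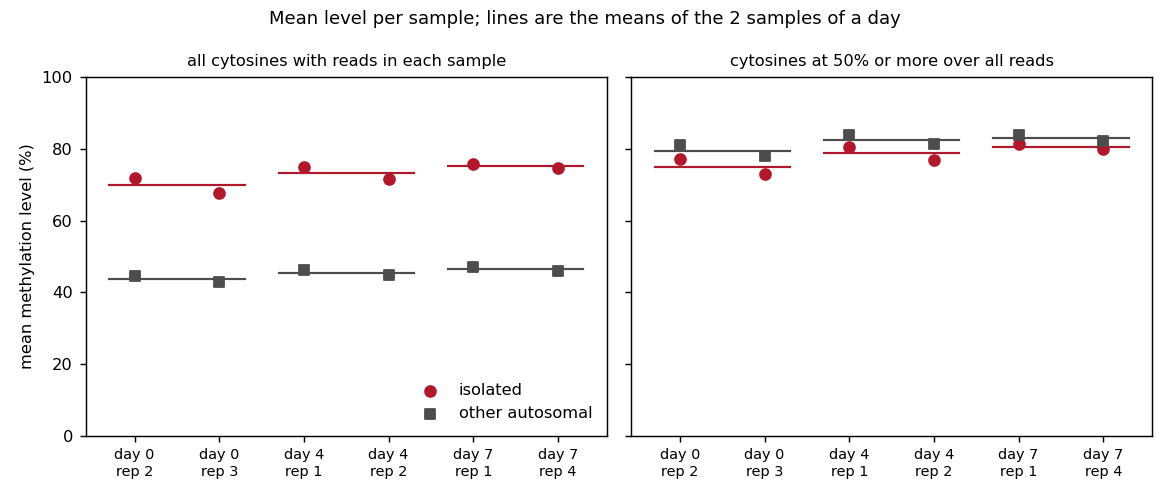
Mean methylation level (y axis, percent) in each of the 6 samples for isolated and other autosomal cytosines, over all cytosines (left) and over those at 50% or more (right). Lines mark the mean of the 2 samples of a day. Isolated cytosines lie above the others on the left and below them on the right in every sample.

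In percentage points, the size of the day 7 difference varied with the level. Members between 50% and 80% over all reads averaged 65.7% ± 3.67 on day 0, 70.2% ± 3.27 on day 4 and 73.1% ± 0.849 on day 7 (SD, n = 2 each), 7.46 points between day 7 and day 0. The other cytosines of that class differed by 6.07 points. Members between 20% and 50% differed by 6.23 points and those between 80% and 90% by 4.27 points, against 3.98 and 3.29 points for the other cytosines.

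At both ends, where levels approach a bound of the scale, the differences in percentage points were small. Members at 90% or more differed by 1.78 points between day 7 and day 0. The 1014 members below 10% stood at 3.05% ± 0.423 on day 0, 2.76% ± 0.0951 on day 4 and 4.41% ± 0.292 on day 7 (SD, n = 2 each), and the other cytosines below 10% at 1.19%, 1.22% and 2.42%. The low classes thus differed by 1.36 and 1.23 points between day 7 and day 0, in the same direction as the mitochondrial level given above. Day 4 minus day 0 was -0.296 points for the members and 0.0255 points for the other cytosines, while the mitochondrial level was higher on day 4. The classes were cut on the reads of all 6 samples, so these values carry no test.

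Among the members, differences between day 7 and day 0 grew with distance up to 50000 bp. They were 4.79 points at 1000 to 2000 bp, 5.12 at 2000 to 5000 bp, 5.40 at 5000 to 10000 bp, 5.93 at 10000 to 20000 bp and 6.56 at 20000 to 50000 bp. The last bin, 720 members beyond 50000 bp, had 5.83 points. Among cytosines at 50% or more the same bins gave 4.96 to 6.46 points. The bins below 1000 bp gave 2.10 points within 10 bp, 3.36 at 10 to 30 bp, 4.78 at 30 to 100 bp, 5.07 at 100 to 300 bp and 5.02 at 300 to 1000 bp. The nearest members, at 4.96 points, were thus not set apart from cytosines at 100 to 1000 bp. These bins share the same 6 libraries and are a description.

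Chromosomes differed little. The mean level of the members over the 6 samples ran from 71.4% on chromosome 7 to 73.7% on chromosome 14, with an SD of 0.582 points over the 19 chromosomes, which hold 1020 to 2902 members each. On chromosome 7 the pooled levels were 75.4% and 73.0% on day 7, against 70.2% and 67.0% on day 0. On chromosome 14 they were 76.5% and 76.1% on day 7, against 73.3% and 69.4% on day 0. In both, the 2 days did not overlap.

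With reads pooled by chromosome, day 7 was above day 0 by 4.73 to 5.96 points, the smallest on chromosome 11 and the largest on chromosome 3. The 2 day 7 samples exceeded both of day 0 on 19 of 19 chromosomes, against 56.2% of all 48 chromosome units, which include the other cytosines and the chromosomes not counted here as autosomes. Day 4 exceeded day 0 in this way on 4 chromosomes (9, 12, 15 and 19), against 43.8% of all units. Day 7 exceeded day 4 in this way on 5 (2, 3, 7, 14 and 18), against 22.9% of all units. Among the 19 units of other autosomal cytosines, the share was 26.3% for day 7 over day 0. It was 73.7% for day 4 over day 0 and 15.8% for day 7 over day 4.

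In edgeR's likelihood-ratio test on methylated and unmethylated counts, all 19 chromosomes were higher on day 7 than on day 0, with Benjamini-Hochberg adjusted p of 0.0163 to 0.0274. Of all units, 50% were called higher in that comparison, most of them the isolated chromosomes themselves, and of the 19 units of other autosomal cytosines 10.5%. The call rests on the choice of test and on single libraries: edgeR's quasi-likelihood test and limma called 0 chromosomes (11 and 17 at an unadjusted p under 0.05), and 0 were called without day 0 replicate 3 or without day 7 replicate 1. Chromosomes are not separate evidence here, since a shift of a whole library moves all of them. Between day 4 and day 0, and between day 7 and day 4, edgeR called 0 of 19, with lowest adjusted p of 0.256 and 0.669 and with 3 and 0 at an unadjusted p under 0.05. The quasi-likelihood test and limma also called 0 in both. Of all units, 0.0% were called higher between day 4 and day 0 and 6.25% between day 7 and day 4, with 5.26% of the 19 units of other autosomal cytosines in the last.

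**Figure D4:**
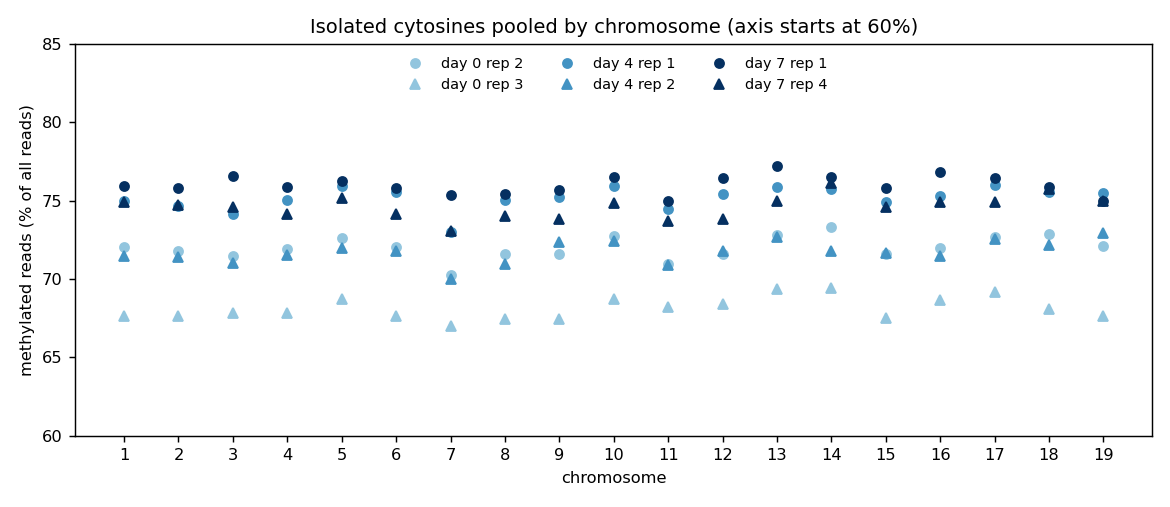
Percent of methylated reads at isolated cytosines (y axis, from 60%) pooled by chromosome (x axis, 1 to 19), with 1 point for each of the 6 samples. Both day 7 points lie above both day 0 points on every chromosome, and the sample order is much the same from one chromosome to the next.

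Windows of 1 Mb gave the finest pooled view. They numbered 2397 with at least 3 members and at least 10 reads in every sample, held 38630 members, and had a median of 15 members (3 to 40). Median reads per window were 173 and 132 on day 0, 178 and 117 on day 4, and 154 and 57 on day 7. The mean level over the samples had a median of 73.4%, quartiles of 69.6% and 76.8% and a range of 43.9% to 89.7%. It lay between 60% and 80% in 89.7% of the windows and below 60% in 41.

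Across windows, the isolated levels hardly followed those of the other listed cytosines. The other cytosines of the same windows had a median of 49.1%, a range of 12.1% to 85.8% and an SD of 17.0 points, against 5.44 points for the isolated ones. The isolated level was the higher in 1989 windows (83.0%). Across the 2397 windows, the Pearson correlation between isolated and other levels was -0.0197 and Spearman's rho was -0.0181. Neighbouring windows correlated at 0.0458 over 2367 pairs. These values describe windows that share libraries, and counting error enters them.

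Ordered into 4 near-equal sets by the number of other cytosines listed in them, windows had isolated levels of 72.9%, 73.4%, 73.3% and 72.2%, sparsest first. The other cytosines in the same sets stood at 69.1%, 56.9%, 43.8% and 37.5%. The isolated differences between day 7 and day 0 were 6.11, 5.48, 5.29 and 4.63 points in that order, against 3.94, 7.04, 2.83 and 2.496 points for the other cytosines. The other cytosines thus differed by more in the second set, where they stood at 58.3% and 62.8% on day 7, against 54.8% and 52.2% on day 0. The higher of these day 7 values came from the shallow replicate 4. In the remaining sets replicate 4 was the lower, at 70.1%, 43.6% and 37.4%, against 71.9%, 46.7% and 40.0% for replicate 1. The part of single deep positions in this was not tested.

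The 5 lowest windows, among the 1505 with at least 10 members and 50 reads in every sample, were not alike. The lowest, chromosome 4 from 15000001 to 16000000 (mm9), stood at 43.9% with 13 members, although its members' own levels averaged 69.2%. A single cytosine at position 15600850 held 41.4% of its reads, and without it the window stood at 75.9%. That cytosine, the third deepest member, had 1 methylated read among 477 (0.210%, Wilson 95% interval 0.0370% to 1.18%): the 1 was in day 4 replicate 2, and the other samples had 0 of 105, 76, 104, 86 and 35 reads. Its nearest listed neighbour was 17626 bp away.

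The other 4 moved less than the lowest window when their deepest member was left out. Chromosome 15 from 98000001 to 99000000 stood at 48.7% (16 members, of which 4 were below 10%), chromosome 2 from 79000001 to 80000000 at 53.8% (12 members, 2 below 10%), chromosome 16 from 6000001 to 7000000 at 53.9% (15 members, 2 below 10%) and chromosome 1 from 193000001 to 194000000 at 54.3% (19 members, 4 below 10%). Without the deepest member of each, they stood at 46.2%, 49.6%, 53.2% and 60.1%. These windows were chosen for their levels, so no test goes with them.

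The 2 deepest members were ordinary in level. The cytosine at chromosome 5 position 15180409 had 1047 reads and a level of 71.4%: 70.8% and 68.9% on day 0, 73.3% and 67.8% on day 4, and 77.3% and 54.2% on day 7, the last from 24 reads. The cytosine at chromosome 6 position 133845334 had 661 reads and a level of 76.4%: 73.6% and 68.6% on day 0, 78.9% and 71.9% on day 4, and 84.1% and 82.5% on day 7. The 3 members farthest from any neighbour were at chromosome 7 positions 101304678 (276352 bp away, 78.6% of 42 reads) and 9388199 (268315 bp, 25% of 36 reads) and at chromosome 5 position 94405025 (219019 bp, 58.2% of 79 reads). Wilson 95% intervals of these 3 run from 64.1% to 88.3%, from 13.8% to 41.1% and from 47.2% to 68.5%.

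Between day 7 and day 0, the median isolated window differed by 5.20 points, with quartiles of 2.17 and 8.41, and 87.2% of windows were higher on day 7. The other cytosines of autosomal windows had a median difference of 2.76 points. Day 7 exceeded day 0 without overlap in 1173 isolated windows (48.9%), against 47.0% of all 4991 windows and 43.9% of those of other cytosines. Both day 7 samples were the lower in 50 (2.09%), against 2.08% of all windows. By this count the isolated windows were near the whole table.

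With edgeR, 37 of the 2397 isolated windows (1.54%) were higher on day 7 than on day 0 at an adjusted p under 0.05 and a difference of at least 10 points, and 0 were lower. Of all 4991 windows tested, 2.24% were called higher and 0.0601% lower. That background includes 31.9% of the 163 X windows, where the day 7 libraries stood apart. Among the other autosomal cytosines, 0.952% of windows were called higher and 0.124% lower. The isolated share was therefore below that of the whole table and above that of the other autosomal windows, and the difference between the classes was not tested.

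The 37 windows were spread over 17 chromosomes, with 7 on chromosome 1, 4 on chromosome 5 and 3 each on chromosomes 8 and 15. Their median levels were 63.5% on day 0, 71.6% on day 4 and 81.5% on day 7. The mean of day 4 lay between the means of the other days in all 37. The differences between day 7 and day 0 were 11.4 to 25.4 points, with a median of 17.5, and stayed above 10 points in all 37 without the deepest member. In the median called window, 80% of the members were higher on day 7, against 62.7% of all isolated cytosines. Levels of day 0 below 60% were found in 9 of the 37, and 28 started between 60% and 80%. Having been called on this difference, they carry no further test of it.

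The largest rise was in chromosome 1 from 147000001 to 148000000 (9 members). The level was 85.2% and 91.2% in the day 7 samples (81 and 34 reads), against 67.7% and 57.9% in the day 0 samples (93 and 57 reads), a difference of 25.4 points (edgeR adjusted p = 0.00676). The day 4 samples stood at 74.5% and 71.9%, between both. Of its 9 members, 8 were higher on day 7. The adjusted p was 0.199 without day 0 replicate 3 and 0.0728 without day 7 replicate 1.

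On chromosome 8 from 38000001 to 39000000 (11 members), the level was 74.8% and 79.5% on day 7, against 59.8% and 49.4% on day 0, a difference of 22.6 points (edgeR adjusted p = 0.0302). Its day 4 samples were far apart, at 77.6% and 50%. On chromosome 3 from 73000001 to 74000000 (13 members), the level was 77.0% and 92.3% on day 7, against 67.2% and 58.3% on day 0, a difference of 21.9 points (edgeR adjusted p = 0.0158). All 13 members were higher on day 7, and the higher day 7 value came from the shallow replicate 4, with 52 reads.

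On chromosome 1 from 6000001 to 7000000 (10 members), the level was 82.6% and 82.8% on day 7, against 67.2% and 56.9% on day 0, a difference of 20.6 points (edgeR adjusted p = 0.0279). Day 4 stood at 71.3% and 79.7%. On chromosome 16 from 96000001 to 97000000 (10 members), the level was 77.5% and 85.4% on day 7, against 63.2% and 58.6% on day 0, a difference of 20.5 points (edgeR adjusted p = 0.0355). The day 4 samples of this window, at 68.8% and 61.8%, overlapped those of day 0. In each of the 5 the days 7 and 0 did not overlap. Every one of the 5 calls depended on day 0 replicate 3 and on a day 7 library as well, and limma called none of them. Leaving out a sample, the differences were 20.4 to 30.3 points for chromosome 1 from 147000001 and 17.3 to 27.8 for chromosome 8. They were 14.3 to 29.5 for chromosome 3, 15.4 to 25.8 for chromosome 1 from 6000001 and 16.6 to 24.5 for chromosome 16. At a distance of 500 bp the chromosome 8 window differed by 18.5 points (edgeR adjusted p = 0.0665). With the autosomes fitted alone, without the X windows, the adjusted p was 0.0566 for the window on chromosome 8, 0.0547 for chromosome 1 from 6000001 and 0.0611 for chromosome 16, and the other 2 kept their calls. The quasi-likelihood test gave 0.0520 for chromosome 1 from 6000001 and 0.0624 for chromosome 16.

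The count of called windows depended on the libraries and the test. It was 2 without day 0 replicate 3, both of them among the 37, 9 without day 7 replicate 1, of which 5 were among the 37, and 62 without the shallow day 7 replicate 4, of which 25 were. The quasi-likelihood test called 20 and limma 0, with 548 isolated windows at an unadjusted p under 0.05. The same replicate of a day was the higher in most isolated windows, less clearly so on day 7. Day 0 replicate 2 was above replicate 3 in 76.5% of isolated windows, and day 4 replicate 1 above replicate 2 in 73.0%. On day 7 replicate 1 was above replicate 4 in 57.7%. Among windows of other autosomal cytosines these shares were 76.7%, 74.0% and 76.1%.

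Between day 4 and day 0 the median isolated window differed by 3.46 points, and edgeR called 0 of 2397, with 206 at an unadjusted p under 0.05. Of all windows, 0.0% were called higher or lower. The quasi-likelihood test and limma also called 0, and Fisher's test on the summed reads, which takes no account of replicate spread, called 75. Day 4 exceeded day 0 without overlap in 34.5% of isolated windows, against 34.2% of all windows. Between day 7 and day 4 the median difference was 1.81 points, and edgeR called 0, with 147 at an unadjusted p under 0.05, as did the quasi-likelihood test and limma, and Fisher's test called 57. Of all windows, 0.801% were called higher and 0.0401% lower, and 37 of the 40 higher ones were on X, where the share was 22.7%. Among other autosomal cytosines the shares were 0.124% higher and 0.0828% lower. Day 7 exceeded day 4 without overlap in 25.9% of isolated windows, against 26.0% of all windows.

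**Figure D5:**
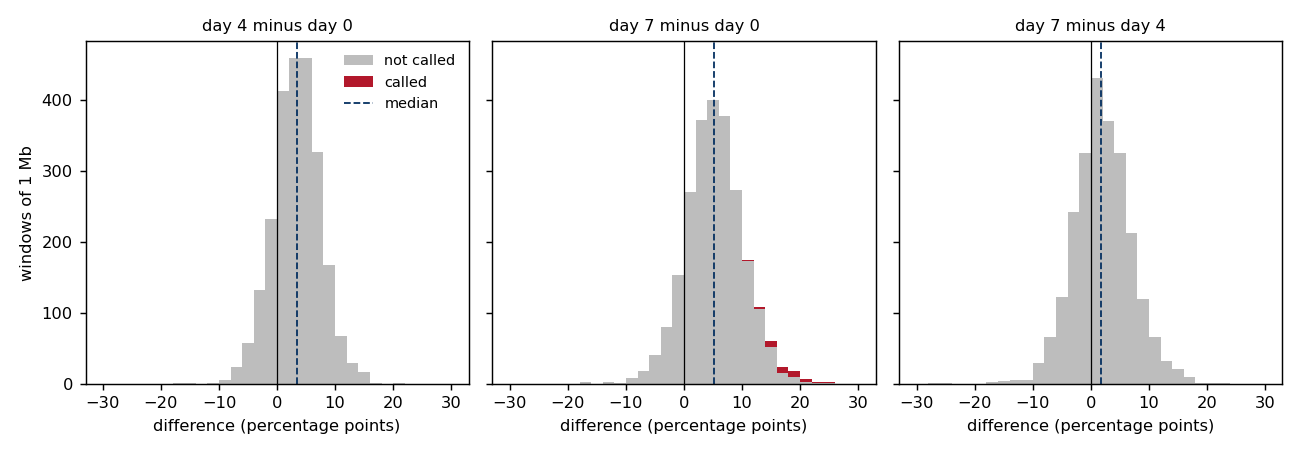
Number of isolated 1 Mb windows (y axis) by difference in methylation level (x axis, percentage points), for the 3 comparisons between days, with called windows in red, a solid line at 0 and a dashed line at the median. The medians are 3.46, 5.20 and 1.81 points from left to right, and the 37 called windows lie in the right tail between day 7 and day 0.

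Single members could be tested in 51 cases, the isolated cytosines with at least 10 reads in every sample, together with cytosines of that depth outside the class. Cytosines with reads of 1 kind only, all methylated or all unmethylated, were left out of the fit, which held 10559 in all. edgeR called 0 of the 51 at an adjusted p under 0.05 and 20 points in any of the 3 comparisons. At an unadjusted p under 0.05 there were 8 between day 7 and day 0, 5 between day 4 and day 0 and 8 between day 7 and day 4. The quasi-likelihood test called 0 in all 3 comparisons, and Fisher's test called 1, between day 7 and day 4. Of all cytosines tested, 0.0852% were higher and 0.0189% lower on day 7 than on day 0, 0.0947% higher and 0.0284% lower on day 7 than on day 4, and 0.0% either way on day 4.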

How the data were processed

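Bisulfite reads were aligned to mm9 with Bismark and Bowtie2, per the submitters' processing notes; how strands and duplicates were handled is not given here. The deposited table gives, per cytosine and sample, counts of methylated and unmethylated reads and a fraction, which equals the methylated share of the deposited counts within 5.55e-16. Total reads per sample ran from 3641141 to 10242334. Levels were recomputed from the counts. Reads of isolated and other cytosines were pooled by chromosome and by 1 Mb window (at least 3 cytosines and 10 reads in every sample). Each unit was tested with edgeR 4.0.16 (R 4.3.3), a negative binomial model of both counts with a term per sample and a methylation term per day, by likelihood ratio, with Benjamini-Hochberg adjustment over the whole table (4991 windows, 48 chromosome units or 10559 cytosines). Calls needed an adjusted p under 0.05, and at least 10 points for windows or 20 points for cytosines. The likelihood-ratio fits of windows and cytosines were run on simulated counts, as were the quasi-likelihood and limma fits of windows. Those counts held no shift of a whole library, and the outcome is not reported here. Sample means were compared by exact permutation (scipy 1.17.1). Alternatives were edgeR's quasi-likelihood test, limma 3.58.1 on log2 ratios with 0.5 added, Fisher's exact test, other distances, window sizes and read minimums, and leaving out each sample. Named items were the extreme chromosomes, the 5 lowest windows, the 5 largest called rises whose days did not overlap, called cytosines, and the 3 deepest and 3 farthest members. The members, lists and tests were chosen with earlier results of these data known. The reference tables at hand are of another mouse build, so no genes were assigned and no sequence is shown.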

Additional observations from a re-analysis of the deposited data

Results flagged for a closer look

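Mitochondrial cytosines, which belong to neither autosomal class, had a higher level in each cultured sample than in either uncultured one. Over 31 cytosines the level was 1.17% in day 4 replicate 1 (1789 reads) and 0.664% in day 4 replicate 2 (1507 reads). In the day 0 samples it was 0.547% and 0.490% (2375 and 1633 reads). Day 4 replicate 2 thus stood close to day 0, and the difference was not tested. On day 7 the level was 2.27% in replicate 1 (2374 reads) and 1.76% in replicate 4 (7603 reads), against the same day 0 values. With this level taken as the share of unconverted reads and removed, the isolated mean was 5.10 points higher on day 7 than on day 0, 3.34 points higher on day 4 than on day 0 and 1.76 points higher on day 7 than on day 4, against 5.46, 3.43 and 2.03 points without this step.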

How the results depend on the processing

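No paired analysis was possible because the days compared share fewer than 2 replicate numbers. The mean level of isolated cytosines was higher at the later day under every alternative run: 5.10 to 5.83 points for day 7 minus day 0 (3.49 to 7.42 leaving out a sample), 3.34 to 4.17 for day 4 minus day 0 (1.46 to 5.40) and 1.39 to 2.29 for day 7 minus day 4 (0.294 to 3.76). The gap between isolated and other cytosines between day 7 and day 4 turned negative with pooled reads (-0.714 points) and ranged from -0.0311 to 1.98 leaving out a sample. Between day 7 and day 0 it was 0.642 to 3.51 points (1.61 to 3.94), and between day 4 and day 0 it was 0.678 to 3.22 (0.631 to 2.97). Called windows between day 7 and day 0 were 7 with a minimum of 20 points, 20 with the quasi-likelihood test, 20 with the autosomes fitted alone, 0 with limma, 0 with limma after centring each sample on its median window (254 at an unadjusted p under 0.05), 281 with Fisher's exact test, which ignores the spread between replicates (279 higher, 2 lower), and 2 to 62 leaving out a sample. Between day 4 and day 0 Fisher's test called 75, and windows of 2 Mb called 1 (chromosome 16 from 74000001). Between day 7 and day 4 Fisher's test called 57, a distance of 500 bp called 1 (chromosome 12 from 83000001), and leaving out a sample called 0 to 2. Called chromosomes between day 7 and day 0 were 0 with the quasi-likelihood test, 0 with limma and 0 to 19 leaving out a sample. With a minimum of 5 reads, 1 cytosine was called between day 7 and day 0 (chromosome 13 position 30721561). Between day 7 and day 4, Fisher's test called 1 cytosine and leaving out a sample called 0 to 1 (chromosome 1 position 180272697 in both). These features were named after their values were seen. A sample left alone in its day was assumed to vary like the others. Alternatives for centring and for cytosines at 50% or more were chosen after seeing the data. Apart from where stated, the causes were not tested. The median of 3 reads per isolated cytosine in day 7 replicate 4 limits the precision of single levels there.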
